A study of Mus musculus with 18 samples.

Results

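Nodal, BMP and ID genes are 9 genes of the TGF-beta superfamily pathways: the ligand genes Nodal, Inhba and Bmp4, the co-receptor gene Tdgf1, the antagonist genes Lefty1 and Lefty2, and the target genes Id1, Id2 and Id3. They were chosen by name, and each was read from its highest-mean probe that carries a single gene symbol. All 9 were found, each with 1 such probe, among 19938 genes with a single-symbol probe, and no filter on low values was applied. Expression was measured on 18 Affymetrix Mouse Gene 1.0 ST arrays in 12 groups of mouse cells. Mouse embryonic fibroblasts (MEFs) carrying ROSA-rtTA and a Nanog-GFP reporter received a doxycycline-inducible piggyBac cassette of 4 reprogramming factor genes that also marks the cells with mCherry. The high-KLF4 cassette (OK+9MS) holds a longer Klf4 cDNA than the low-KLF4 cassette (OKMS). Cells were kept in ES cell medium with 1 µg/mL doxycycline and sorted as mCherry+ on days 2, 4, 8 and 18. Day 8 has 2 arrays per cassette and each other day has 1 array per cassette. The paper describes a passage of the cultures on day 8 and takes loss of mCherry as part of full reprogramming. The day 18 cells were therefore those that still showed mCherry. The other arrays held the high-KLF4 iPSC clones A10 and H10, the low-KLF4 iPSC clones A7 and A9, primary keratinocytes (2 arrays) from pups at postnatal day 2, and the mouse ES cell line 1A2 (mESC, 2 arrays). Each iPSC array was a different clone, and mESC is a single line. The labels tell the other repeated arrays apart only by a number, and the methods describe the repeats of day 8 cells, keratinocytes and mESCs as independent experiments.

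Nodal and activin, the dimer of the Inhba product, signal through type I and type II receptors to SMAD2 and SMAD3, and Nodal also needs a co-receptor such as the product of Tdgf1 (Cripto). LEFTY proteins are secreted antagonists of Nodal that are themselves transcribed in response to it, so the Nodal pathway holds a feedback loop. BMP ligands signal to SMAD1 and SMAD5, and the ID genes are classical targets of that branch. ID proteins lack a DNA-binding region and hold E proteins, the products of Tcf3, Tcf4 and Tcf12, in inactive dimers. In mouse ES cells BMP4 with LIF is known to support self-renewal through ID proteins, and Nodal, Lefty1, Lefty2 and Tdgf1 are known to be expressed in undifferentiated cells.

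Promoter windows, 250 bases before to 50 bases after an annotated start site of each gene, are shown for 4 members with different patterns: Tdgf1 and Nodal, which had low signals early and high signals in iPSC clones, and Id2 and Id3, which did not follow that course. RefSeq windows of the build GRCm38.p6 were matched for 6 of the 9 genes. The letters of 5 motifs were searched on both strands: the SMAD palindrome GTCTAGAC, the SMAD box CAGAC, the GC-rich SMAD box GGCGCC, the FOXH1 site AATCCACA and a KLF box GGGNGTGG. Capitals mark the KLF box in Tdgf1, the GC-rich SMAD box in Id2 and the SMAD box on either strand in Id3.
Tdgf1, chr9:110946109-110946408, minus strand: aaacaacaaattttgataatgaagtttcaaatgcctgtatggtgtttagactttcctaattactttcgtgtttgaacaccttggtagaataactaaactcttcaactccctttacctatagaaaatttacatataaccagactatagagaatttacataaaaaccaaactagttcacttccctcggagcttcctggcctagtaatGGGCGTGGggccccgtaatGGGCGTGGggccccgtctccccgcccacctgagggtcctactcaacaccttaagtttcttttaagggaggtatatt
Nodal, chr10:61417722-61418021, plus strand: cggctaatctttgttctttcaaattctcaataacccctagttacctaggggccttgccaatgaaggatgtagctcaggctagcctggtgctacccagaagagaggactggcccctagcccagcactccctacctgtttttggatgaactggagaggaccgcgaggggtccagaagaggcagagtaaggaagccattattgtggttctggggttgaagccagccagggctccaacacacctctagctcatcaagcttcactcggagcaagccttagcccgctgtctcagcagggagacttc
Id2, chr12:25096043-25096342, minus strand: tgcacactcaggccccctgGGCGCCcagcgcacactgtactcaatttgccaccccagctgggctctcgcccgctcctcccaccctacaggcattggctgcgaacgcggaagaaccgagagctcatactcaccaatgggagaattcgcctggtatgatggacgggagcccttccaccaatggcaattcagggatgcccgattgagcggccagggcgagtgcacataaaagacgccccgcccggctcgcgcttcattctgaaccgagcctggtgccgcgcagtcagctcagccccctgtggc
Id3, chr4:136143572-136143871, plus strand: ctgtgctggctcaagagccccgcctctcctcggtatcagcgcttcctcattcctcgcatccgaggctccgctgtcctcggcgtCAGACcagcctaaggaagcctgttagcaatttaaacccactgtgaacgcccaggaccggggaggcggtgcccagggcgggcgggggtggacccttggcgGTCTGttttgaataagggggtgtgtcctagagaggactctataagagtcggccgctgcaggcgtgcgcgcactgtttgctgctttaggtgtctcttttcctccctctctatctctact
The Tdgf1 window held 2 copies of the KLF box, starting 45 and 26 bases before the start site, and 1 SMAD box. Of 32851 promoter windows of the same length, 17.6% held a KLF box and 3.32% held 2 or more. The Id3 window held 2 SMAD boxes and 1 KLF box, where 49.6% of all windows held a SMAD box and 16.2% held 2 or more. The Id2 window held 1 GC-rich SMAD box, as did 11.9% of all windows. None of the 5 motifs was found in the Nodal, Inhba and Bmp4 windows. The Inhba window, chr13:16011601-16011900, lies inside the span of the gene given below and not at its first base, whereas the other 5 windows lie at the start of the span. None of the 6 windows held the SMAD palindrome or the FOXH1 site, which 0.213% and 0.855% of all windows held. No matches overlapped. A match says only that these letters stand in the window, and binding was not measured.

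In GRCm38.p6 coordinates the LEFTY genes lie on the same chromosome, Lefty2 at chr1:180893108-180899107 and Lefty1 at chr1:180935022-180938401. Nodal lies at chr10:61417972-61425338, Tdgf1 at chr9:110939608-110946158, Inhba at chr13:16004256-16031609 and Bmp4 at chr14:46383525-46390669. Id1 lies at chr2:152736251-152737410, Id2 at chr12:25093799-25096092 and Id3 at chr4:136143822-136145392.

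The values are normalized signals on a linear scale, and differences are on the log2 scale. Tests were limma fits with Benjamini-Hochberg adjustment over 23410 probes, and "called" means an adjusted p below 0.05. Array medians were 139 to 162 and the table gives no detection call, so signals near or below those medians may be background. Signals of different probes are not compared with each other. The labelled cell types carried their markers: the mean log2 signal of 7 pluripotency genes, Tdgf1 among them, was 11.73 to 11.97 in iPSC clones and 12.20 to 12.37 in mESCs. Zfp42, another pluripotency gene of that list, was lower in the clones, at 174 to 369.8 in the 4 clones against 2237 to 2386 in mESCs (-3.19 ± 0.26 on the log2 scale, limma adjusted p = 0.000626). The mean log2 signal of 7 keratinocyte genes was 10.69 in keratinocytes and at most 8.35 on any other array. That of 8 fibroblast genes was 9.30 to 9.68 in iPSC clones and 8.82 to 8.93 in mESCs, against 6.97 to 7.05 in keratinocytes. The part of fibroblast markers in the clone and mESC values of the members was not tested. The 2 day 8 arrays of each cassette stood apart, since all 8 fibroblast markers were lower on the second array. Their mean log2 signals were 9.92 on the second and 11.63 on the first high-KLF4 array, and 9.62 on the second and 11.76 on the first low-KLF4 array. In bulk samples, fewer cells of a type and less RNA per cell cannot be told apart.

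Lefty1, Lefty2, Nodal and Tdgf1 had a similar pattern. Signals were low on days 2 and 4 and in keratinocytes, higher on day 18, and high in every iPSC clone and mESC array. Tdgf1 (probe 10597268), the co-receptor gene, had signals of 68.4, 70.9, 503 and 302, and 3091 in high-KLF4 cells on days 2, 4, 8 (2 arrays) and 18, and 9068 and 8634 in high-KLF4 iPSC clones. In low-KLF4 cells the same series was 76.3, 74.1, 579.5 and 474, and 5310, with 8924 and 8712 in the iPSC clones. Keratinocytes had 66.2 and 65.0, and mESCs had 8279 and 7239. The day 8 signals of Tdgf1 stood above those of days 2 and 4 and below those of day 18 without overlap. Tdgf1 had the widest range of the 9 genes, 7.13 on the log2 scale between its lowest and highest arrays. In its order of group means, 3 steps between neighbours exceeded the 95% margin from the pooled spread of this probe. They were 0.78 down to high-KLF4 cells on day 18 and 2.56 down to low-KLF4 cells on day 8. The last was 2.35, from high-KLF4 cells on day 8 down to the lowest 5 groups. The 0.78 step has 1 array on each side, so its margin comes from the spread of other groups.

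**Figure D1:**
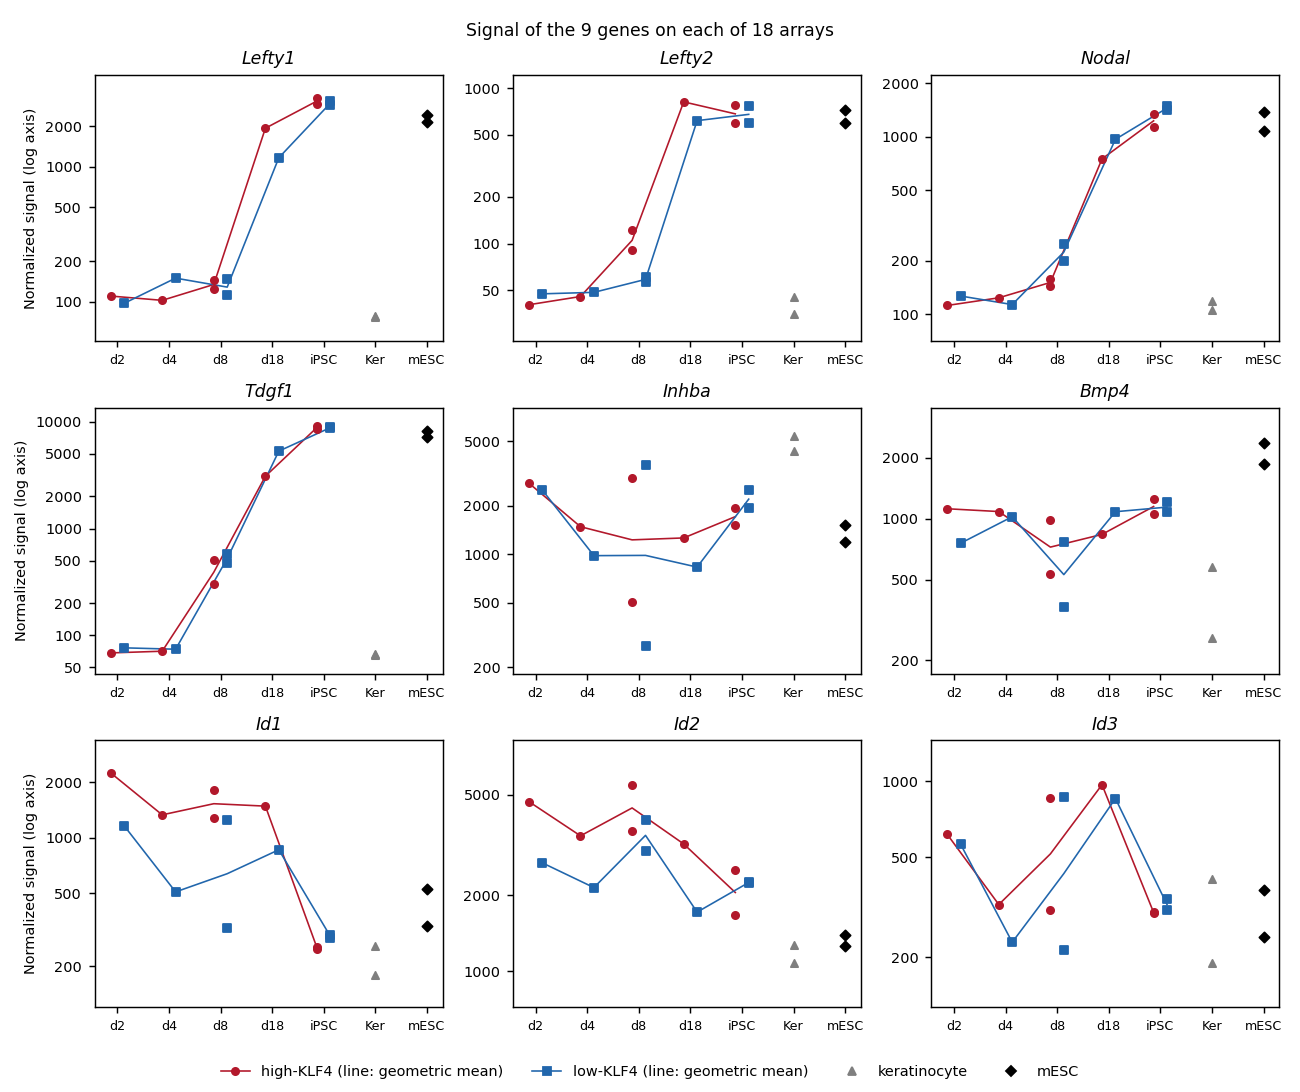
Normalized signal (log axis) of each of the 9 genes on each array, with high-KLF4 cells as circles, low-KLF4 cells as squares, keratinocytes (Ker) as triangles and mESCs as diamonds; lines join the geometric means of each cassette's groups. Tdgf1 is at 3091 (high-KLF4) and 5310 (low-KLF4) on day 18, and Id1 lies higher with the high-KLF4 cassette on every sorted day.

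Lefty1 (probe 10352314), which encodes an antagonist of Nodal, had 110.2, 102, 124 and 145, and 1936 in high-KLF4 cells on the same days, and 2940 and 3228 in the high-KLF4 iPSC clones. Low-KLF4 cells had 97.2, 149.6, 147 and 112, and 1169, and their iPSC clones 2875 and 3076. Keratinocytes had 78.7 and 76.5, and mESCs had 2440 and 2157. Unlike Tdgf1, Lefty1 had signals on day 8 within the range of days 2 and 4. The clones led the order of groups, and low-KLF4 clones lay 0.37 above mESCs (margin 0.32). High-KLF4 cells on day 18 lay 0.73 above low-KLF4 cells of that day (margin 0.46), which lay 2.97 above the next group. Each of these groups is 1 array, so the margin comes from the spread of other groups. The 7 lower groups did not differ between neighbours beyond the pooled margin.

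Lefty2 (probe 10352302), which encodes the other LEFTY antagonist, had 40.3, 45.6, 90.4 and 121, and 817 in high-KLF4 cells, and 598 and 783 in the high-KLF4 iPSC clones. Low-KLF4 cells had 47.4, 48.5, 56.6 and 60.9, and 618, and their clones 598 and 771. Keratinocytes had 35.3 and 44.9, and mESCs had 723 and 599.6. On day 18 Lefty2 lay near the range of the clones. The day 18, iPSC and mESC groups did not differ between neighbours beyond the pooled margin of this probe. High-KLF4 cells on day 8 came next, 2.56 lower, and lay 0.83 above low-KLF4 cells on day 8 (margin 0.48). Both of these day 8 groups lay below the array medians.

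Nodal (probe 10363481), the ligand gene, had 112, 124, 159 and 144, and 749 in high-KLF4 cells, and 1337 and 1126 in the high-KLF4 iPSC clones. Low-KLF4 cells had 127, 113, 200.5 and 249.9, and 966, and their clones 1405 and 1491. Keratinocytes had 106 and 118, and mESCs had 1075 and 1379. Both high-KLF4 arrays of day 8 lay below both low-KLF4 arrays, the opposite order to that of Lefty2 on the same arrays. The steps beyond the spread were those from high-KLF4 cells on day 18 down to low-KLF4 cells on day 8 (1.74) and from these to high-KLF4 cells on day 8 (0.57). Over the 12 group means, the 6 correlations among Lefty1, Lefty2, Nodal and Tdgf1 were 0.95 to 0.98, and those of these 4 genes with the other 5 members were -0.40 to 0.59. The groups share cassettes, days and normalization, so the correlations are a description.

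Inhba (probe 10403743), which encodes the activin A subunit, did not follow the Nodal genes. It had 2756, 1482, 2984 and 506, and 1263 in high-KLF4 cells on days 2, 4, 8 and 18, and 1922 and 1523 in the high-KLF4 iPSC clones. Low-KLF4 cells had 2497, 981, 3562 and 272, and 834, and their clones 2492 and 1934. Keratinocytes had 4351 and 5398, and mESCs had 1524 and 1191. The highest signals were those of keratinocytes, and the lowest of all 18 arrays were those of the second day 8 array of each cassette. No neighbouring groups differed beyond the pooled margin of this probe. On the log2 scale the SD was 2.62 in low-KLF4 and 1.81 in high-KLF4 cells on day 8. In the other groups with 2 arrays it was 0.22 to 0.26.

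Bmp4 (probe 10419261), a BMP ligand gene, had 1120, 1085, 984 and 534, and 837 in high-KLF4 cells, and 1251 and 1055 in the high-KLF4 iPSC clones. Low-KLF4 cells had 757, 1023, 770.2 and 365, and 1083, and their clones 1079 and 1207. Keratinocytes had 577 and 257, and mESCs had 2359 and 1869. Both mESC arrays exceeded every other array, although no neighbours in the order of groups differed beyond the pooled margin of this probe.

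Id1 (probe 10477169), a BMP target gene, had higher signals in sorted cells than in iPSC clones. High-KLF4 cells had 2258, 1333, 1827 and 1286, and 1487 on days 2, 4, 8 and 18, and their iPSC clones had 254 and 249. Low-KLF4 cells had 1165, 507, 1255 and 324, and 860.4, and their clones 297 and 284. Keratinocytes had 257 and 179.5, and mESCs had 333 and 528. All 5 high-KLF4 sorted arrays lay above all 5 low-KLF4 sorted arrays, and all 10 lay above the 4 clones. No neighbours among the 12 groups differed beyond the pooled margin of this probe.

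Id2 (probe 10399691) had the narrowest range of the 9 genes, 5.03-fold between its lowest and highest arrays. High-KLF4 cells had 4688, 3433, 5451 and 3593, and 3189, and their iPSC clones 2514 and 1672. Low-KLF4 cells had 2685, 2144, 3967 and 2997, and 1715, and their clones 2230 and 2261. Keratinocytes had 1266 and 1084, and mESCs had 1391 and 1261. The 4 lowest Id2 signals were those of keratinocytes and mESCs.

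Id3 (probe 10509163) had 616, 324, 858 and 309, and 969.9 in high-KLF4 cells, and 299 and 303 in their iPSC clones. Low-KLF4 cells had 562, 229, 869 and 213, and 855, and their clones 339 and 309. Keratinocytes had 408 and 189.7, and mESCs had 241 and 369. Id3 differed by at most 0.54 between the cassettes in any pair of arrays of the same day and number, and by more between the first and second arrays of day 8. Neither Id2 nor Id3 had neighbouring groups that differed beyond the pooled margin of the probe.

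To ask whether Klf4 stoichiometry goes with a difference in these genes, high-KLF4 cells were compared with low-KLF4 cells on day 8. None of the 9 genes was called, against 3.99% of all probes in either direction. An unadjusted limma p under 0.05 was found for 3 of them and for 3785 of the 23410 probes. These 3 were also the genes whose arrays did not overlap between the cassettes, and the share of all probes without overlap was not computed. Lefty2 was at 90.4 and 121 in high-KLF4 cells against 56.6 and 60.9 in low-KLF4 cells, a log2 difference of 0.83 ± 0.21 (SE; limma adjusted p = 0.0731). These Lefty2 signals lay below the array medians and were not shown to exceed background. Nodal was at 159 and 144 in high-KLF4 cells against 200.5 and 249.9 in low-KLF4 cells, a difference of -0.57 ± 0.16 (limma adjusted p = 0.0973). Id1 was at 1827 and 1286 in high-KLF4 cells against 1255 and 324 in low-KLF4 cells, a difference of 1.27 ± 0.54 (limma adjusted p = 0.299). The 95% intervals of the other 6 genes included 0, and the widest was that of Inhba, -2.26 to 2.90. Lefty1 differed by 0.06 with an interval of -0.26 to 0.39. With the array number as a replicate block, Lefty2, Nodal, Tdgf1 and Id1 were called, beside 1752 of 23410 probes called higher and 1195 lower. Neither labels nor methods say that a number marks an experiment shared by the cassettes. The calls changed with single arrays: without the first low-KLF4 array Id1 (2.24) and Nodal (-0.73) were called, and without the first high-KLF4 array Lefty2 (1.05) and Tdgf1 (-0.79).

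Over the 10 sorted arrays with day as a block, no member was called either, against 0.162% of all probes in either direction. Id1 was 1.13 ± 0.35 higher in high-KLF4 cells on the log2 scale (SE; 5 arrays against 5; limma adjusted p = 0.206). It was higher in 5 of 5 pairs of arrays of the same day and number, by 0.54 to 1.99. Id2 was 0.62 ± 0.15 higher (limma adjusted p = 0.146), also in 5 of 5 pairs, by 0.26 to 0.90. Tdgf1 was lower in high-KLF4 cells in 5 of 5 pairs, with a fitted difference of -0.37 ± 0.17 (limma adjusted p = 0.348), and Nodal was lower in 4 of 5 (-0.31 ± 0.12, limma adjusted p = 0.289). Every pair thus had the same direction for Id1, Id2 and Tdgf1, and none of the 3 passed this test, which does not use the array number. The share of all probes with 1 direction in every pair was not computed. With the day 8 array number as a replicate block, Id1 and Id2 were called, beside 415 probes called higher and 90 lower. Neither labels nor methods say that a number marks a shared experiment. Keratinocyte markers moved with the cassette. Their mean log2 signal was 7.49 to 8.35 on the 5 high-KLF4 arrays and 6.68 to 7.06 on the 5 low-KLF4 arrays, and their part in the values of the members was not tested.

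**Figure D2:**
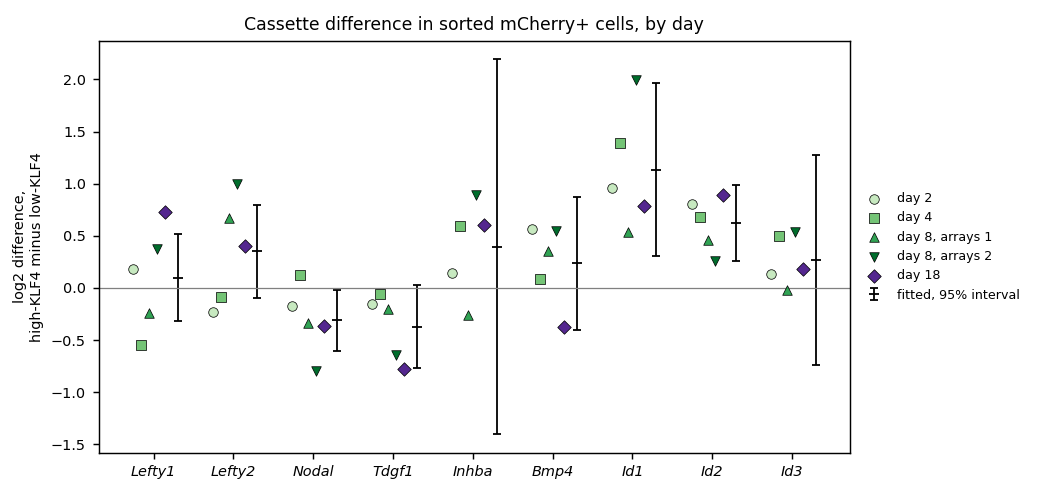
Log2 difference of the high-KLF4 minus the low-KLF4 array of the same day and number (symbols) for each of the 9 genes, with the fitted difference and its 95% interval (bars). Id1 and Id2 lie above 0 and Tdgf1 below 0 in 5 of 5 pairs, and none of the 9 genes was called in this fit.

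Other genes of the pathways did pass the test on day 8. Of 18 measured BMP and GDF ligand genes, 2 were higher in high-KLF4 cells and 0 were lower, against 2.71% of all probes called higher. Bmp2 was at 284 and 326 in high-KLF4 cells against 151 and 63.5 in low-KLF4 cells (1.64 ± 0.33, limma adjusted p = 0.0338). The low-KLF4 signals of Bmp2 lay near or below the array medians and were not shown to exceed background. Bmp6 was at 524 and 597 in high-KLF4 cells against 296 and 315 in low-KLF4 cells (0.87 ± 0.13, limma adjusted p = 0.0103). Both encode ligands of the branch that the ID genes belong to. Eng, which encodes the co-receptor endoglin, was the called gene of 14 receptor genes, at 1136 and 1597 in high-KLF4 cells against 548 and 575 in low-KLF4 cells (1.26 ± 0.16, limma adjusted p = 0.00456). Smurf1, a ubiquitin ligase gene, was higher by 0.79 among 14 SMAD and cofactor genes, and Pcsk6, a proprotein convertase gene, by 1.34 among 3. None of 13 Nodal and activin genes, 11 BMP-SMAD targets, 9 Nodal targets, 11 BMP antagonists, 7 TGF-beta ligand genes, 8 TGF-beta targets or 3 ID partner genes was called. Without the second high-KLF4 array Bmp2 (1.54), Bmp6 (0.78), Pcsk6 (1.01) and Smurf1 (0.52) were not called, nor was Smurf1 without either low-KLF4 array. All 5 calls were lost in a fit of these 4 arrays alone, which called 0 probes and had 1759 at an unadjusted p under 0.05.

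In iPSC clones no cassette difference was detected. High-KLF4 clones differed from low-KLF4 clones by -0.36 to 0.05 in the 9 genes, no member was called, and 0% of all probes were called in either direction by limma, with 224 at an unadjusted p under 0.05. The interval of the difference was -0.48 to 0.49 for Tdgf1, -0.47 to 0.50 for Lefty2 and -1.45 to 1.04 for Id1. The cassette difference on day 8 minus that in iPSC clones was 0.82 ± 0.30 for Lefty2 (limma adjusted p = 0.371) and 1.47 ± 0.77 for Id1 (limma adjusted p = 0.603). No member was called for this change, against 0.824% of all probes in either direction, and 1 member was called without the first low-KLF4 day 8 array.

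Day 8 cells were set against the iPSC clones of the same cassette to ask how far the genes were from their levels in established clones. In high-KLF4 cells 4 members were lower and 2 were higher, against 14.7% of all probes called lower and 13.5% called higher. Lefty1 was lower on day 8, at 124 and 145 against 2940 and 3228 in the clones, a log2 difference of -4.52 ± 0.14 (limma adjusted p = 7.78e-07). Tdgf1 was 22.7-fold lower (-4.50 ± 0.21, limma adjusted p = 4.62e-06). Nodal differed by -3.02 ± 0.16 (limma adjusted p = 8.37e-06) and Lefty2 by -2.71 ± 0.21 (limma adjusted p = 7.02e-05). For these 4 genes the day 8 arrays and the clones did not overlap. The same held for 8 of the 9 members, and the share of all probes without overlap was not computed. The day 8 signals of Lefty1, Lefty2 and Nodal in high-KLF4 cells lay below or near the array medians and were not shown to exceed background, so no fold is given for them.

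Id1 and Id2 ran the other way. Id1 was at 1827 and 1286 in high-KLF4 cells on day 8 against 254 and 249 in their clones (2.61 ± 0.54, limma adjusted p = 0.00826). Id2 was at 5451 and 3593 on day 8 against 2514 and 1672 in the clones (1.11 ± 0.25, limma adjusted p = 0.0110). Without clone H10 neither was called (Id1 2.59, Id2 0.82), and Id2 was not called without the first day 8 array (0.81) or in a fit of these 4 arrays alone (adjusted p = 0.0879). Id3 was at 858 and 309 on day 8 against 299 and 303 in the clones and was not called (0.77 ± 0.70, limma adjusted p = 0.466). Id4, the other ID gene, was called higher, at 943 and 955 on day 8 against 215 and 174 in the clones (2.29 ± 0.13, limma adjusted p = 1.34e-05).

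In low-KLF4 cells 4 members were lower than in the clones, against 10.8% of all probes called lower. Lefty1 differed by -4.53 ± 0.14, Tdgf1 by -4.07 ± 0.21, Lefty2 by -3.53 ± 0.21 and Nodal by -2.69 ± 0.16 (limma adjusted p at most 2.46e-05), the 4 genes that were also lower with the high-KLF4 cassette. No member was called higher, against 8.43% of all probes. Id1 was at 1255 and 324 on day 8 against 297 and 284 in low-KLF4 clones (1.13 ± 0.54, limma adjusted p = 0.181), and Id2 at 3967 and 2997 against 2230 and 2261 (0.62 ± 0.25, limma adjusted p = 0.117). Neither gene overlapped between day 8 and the clones, as was so for 7 of the 9 members. The share of all probes without overlap was not computed. Without the second day 8 array Id1 was called (2.11). Without the first, Inhba was called lower (-3.01). Id4 was called higher, at 754 and 825 on day 8 against 192 and 222 in the clones (1.93 ± 0.13, limma adjusted p = 5.15e-05). The change in the cassette difference given above is also the test of whether Id1 or Id2 differed from the clones by unequal amounts with the 2 cassettes, and it called neither.

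Markers moved with the cells in these comparisons. All 7 pluripotency markers, Tdgf1 among them, were lower on day 8 than in the clones, with medians of -3.16 with high-KLF4 and -3.60 with low-KLF4. Of 7 keratinocyte markers, 5 were higher with high-KLF4 (median 0.83) and 4 with low-KLF4 (median 0.43). None of 8 fibroblast markers was called, with medians of 1.46 and 1.39. The part of these markers in the values of the members was not tested.

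**Figure D3:**
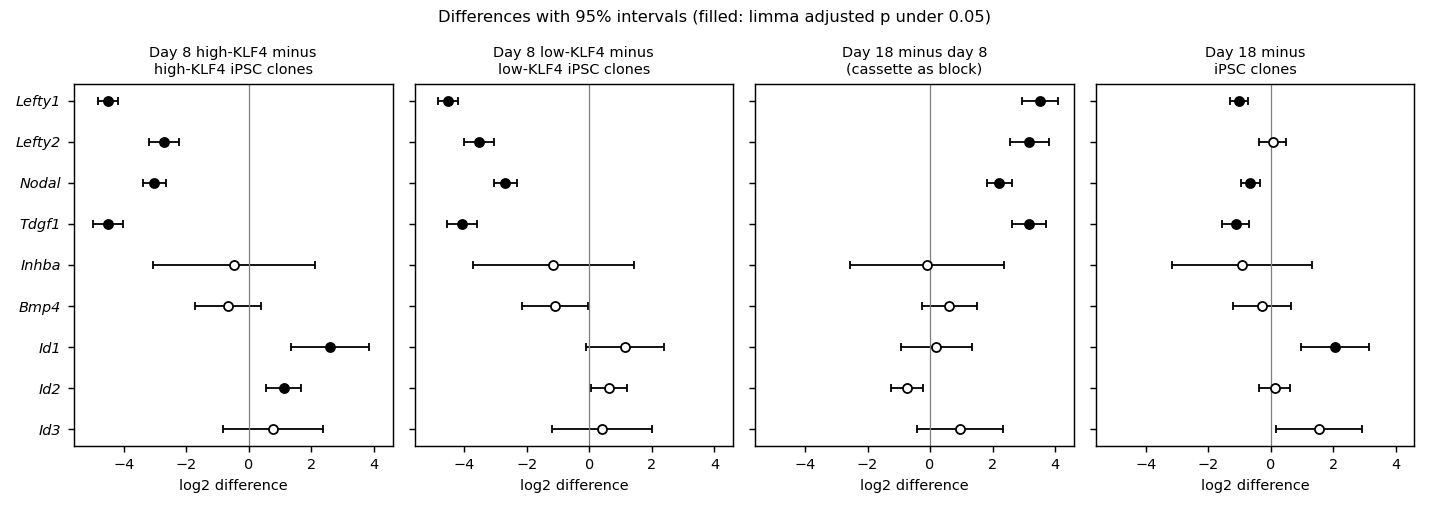
Log2 differences with 95% intervals for the 9 genes in 4 comparisons, filled where limma's adjusted p was below 0.05. Lefty1, Lefty2, Nodal and Tdgf1 lie at -2.69 or below on day 8 against iPSC clones with either cassette, at 2.21 or above on day 18 against day 8, and between -1.12 and 0.06 on day 18 against iPSC clones.

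Among the other pathway genes, Gdf3, which encodes a Nodal-related ligand, differed from the clones on day 8 by -3.18 with high-KLF4 and -3.49 with low-KLF4. Foxh1, the gene of the DNA-binding partner of SMAD2 and SMAD3 in Nodal signalling, differed by -2.24 and -2.07, and the Nodal target Eomes by -1.34 and -1.69. Of the 13 Nodal and activin genes, 5 were lower with either cassette, against 14.7% of all probes with high-KLF4 and 10.8% with low-KLF4, and 4 of the 5 are the members Lefty1, Lefty2, Nodal and Tdgf1. Of the 9 Nodal targets, 5 were lower with either cassette, of which 3 are the members Lefty1, Lefty2 and Nodal, with median differences of -0.50 and -0.72 against 0.04 and 0.06 over all probes. Receptor genes moved in both directions, 6 higher and 2 lower of 14 with high-KLF4 and 5 higher and 2 lower with low-KLF4, against 13.5% of all probes higher and 14.7% lower with high-KLF4 and 8.43% higher and 10.8% lower with low-KLF4. The number of receptor genes called with low-KLF4, 7 in all, was 4 without the first day 8 array, 2 without clone A7 and 1 without clone A9. Tgfbr2, a TGF-beta receptor gene, was higher by 2.54 with high-KLF4 and by 1.25 with low-KLF4, and the low-KLF4 call was lost without the first day 8 array (0.65), clone A7 (1.49) or clone A9 (1.00). Smad3 was higher (0.83 and 1.09) and Smad7, the gene of an inhibitory SMAD, was lower (-0.71 and -1.33). The Smad7 call with high-KLF4 was lost without each of the 4 compared arrays in turn, and that with low-KLF4 without clone A9 (-1.21). Of 18 BMP and GDF ligand genes, 5 were higher and 1 lower with high-KLF4, with Bmp2 at 2.19 and Bmp7 at -2.28, and 2 were higher and 0 lower with low-KLF4. The ID partner gene Tcf12 was higher by 0.92 and 0.95, and Furin, a convertase gene, by 1.40 and 1.03.

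Days were compared with the cassette as a block. The day 18 cells were those that still showed mCherry after the passage on day 8. The days are therefore not a course of the same cells toward the clones. From day 2 to day 8 the called member was Tdgf1, against 0.466% of all probes called higher. Tdgf1 was at 302 to 579.5 on the 4 day 8 arrays against 68.4 (high-KLF4) and 76.3 (low-KLF4) on day 2, a difference of 2.65 ± 0.23 (limma adjusted p = 0.0142). The call was lost without the high-KLF4 day 2 array (2.78) and without the low-KLF4 day 2 array (2.51). Lefty1 (0.34 ± 0.24, limma adjusted p = 0.509), Lefty2 (0.84 ± 0.26, limma adjusted p = 0.182) and Nodal (0.63 ± 0.17, limma adjusted p = 0.142) were not called. For each, all 4 day 8 arrays exceeded both day 2 arrays. Of the 9 members 4 had no overlap, and the share of all probes without overlap was not computed. Of the 11 BMP-SMAD targets, Id4 was called higher on day 8 (1.09 ± 0.14, limma adjusted p = 0.0283), and that call too was lost without either day 2 array or either high-KLF4 day 8 array.

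On day 18, 4 of the 9 members were higher than on day 8 and none was lower, against 5.16% of all probes called higher and 6.67% called lower. Lefty1 was at 1936 (high-KLF4) and 1169 (low-KLF4) on day 18 against 112 to 147 on day 8, 3.52 ± 0.24 on the log2 scale (limma adjusted p = 0.000500). Lefty2 was at 817 and 618 against 56.6 to 121 (3.18 ± 0.26, limma adjusted p = 0.00101). For both LEFTY genes each day 18 array lay above every day 8 array. Of the 9 members 4 had no overlap, and the share of all probes without overlap was not computed. Tdgf1 was at 3091 and 5310 against 302 to 579.5 (3.16 ± 0.23, limma adjusted p = 0.000640). The last of the 4, Nodal, was at 749 and 966 against 144 to 249.9 (2.21 ± 0.17, limma adjusted p = 0.000761). These 4 calls held without each array in turn. Id2 was at 3189 and 1715 on day 18 against 2997 to 5451 on day 8 and was not called (-0.74 ± 0.21, limma adjusted p = 0.0684), except without the second high-KLF4 day 8 array (-0.91). The intervals of Id1 (-0.94 to 1.33) and Id3 (-0.43 to 2.33) included 0.

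The other Nodal targets were higher on day 18 too. All 9 measured genes of the Nodal target and mesendoderm list were called higher than on day 8, with a median difference of 2.21 against -0.01 over all probes, and this count was 9 without each array in turn. Of the 9, 3 are the members Lefty1, Lefty2 and Nodal. Cer1, which encodes Cerberus, a secreted antagonist of Nodal and BMPs, had 3141 in high-KLF4 and 4349 in low-KLF4 cells on day 18, and 46.9 to 63.9 on the 16 other arrays (6.13 ± 0.11 against day 8; limma adjusted p = 1.58e-06). Eomes, a T-box factor gene of mesendoderm, had 1365 and 1020 on day 18, and 72.8 to 306 on the others (3.72 ± 0.10, limma adjusted p = 6.76e-06). The endoderm factor genes Foxa2 and Sox17 were higher by 1.89 and 1.84, and Gsc and Mixl1, transcription factor genes of the primitive streak, by 1.45 and 1.61. All 6 genes had their highest signals of the 18 arrays on day 18.

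Of 13 Nodal and activin ligand, co-receptor and antagonist genes, 8 were higher on day 18 than on day 8 and 0 were lower. Beyond the members these were Cer1, Gdf3 (2.10), the co-receptor gene Cfc1 (1.63) and Inha (0.84), of which Inha was not called without either day 18 array. Foxh1 was at 996 (high-KLF4) and 1080 (low-KLF4) on day 18 against 108 to 172 on day 8 (2.96 ± 0.18, limma adjusted p = 0.000297). Of 14 receptor genes, Acvr2b was higher (0.72), and Acvr2a (-0.91) and Bmpr2 (-0.76) were lower. Id4 was lower (-1.35) among 11 BMP-SMAD targets and Bmp7 higher (2.00) among 18 BMP and GDF ligand genes, shares near the 6.67% of all probes called lower and the 5.16% called higher, and none of 11 BMP antagonist genes was called. The Bmp7, Acvr2b and Bmpr2 calls were lost without either day 18 array, the Bmp7 and Acvr2b calls also without the first low-KLF4 or either high-KLF4 day 8 array, and the Acvr2a call without the low-KLF4 day 18 array (-0.81).

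**Figure D4:**
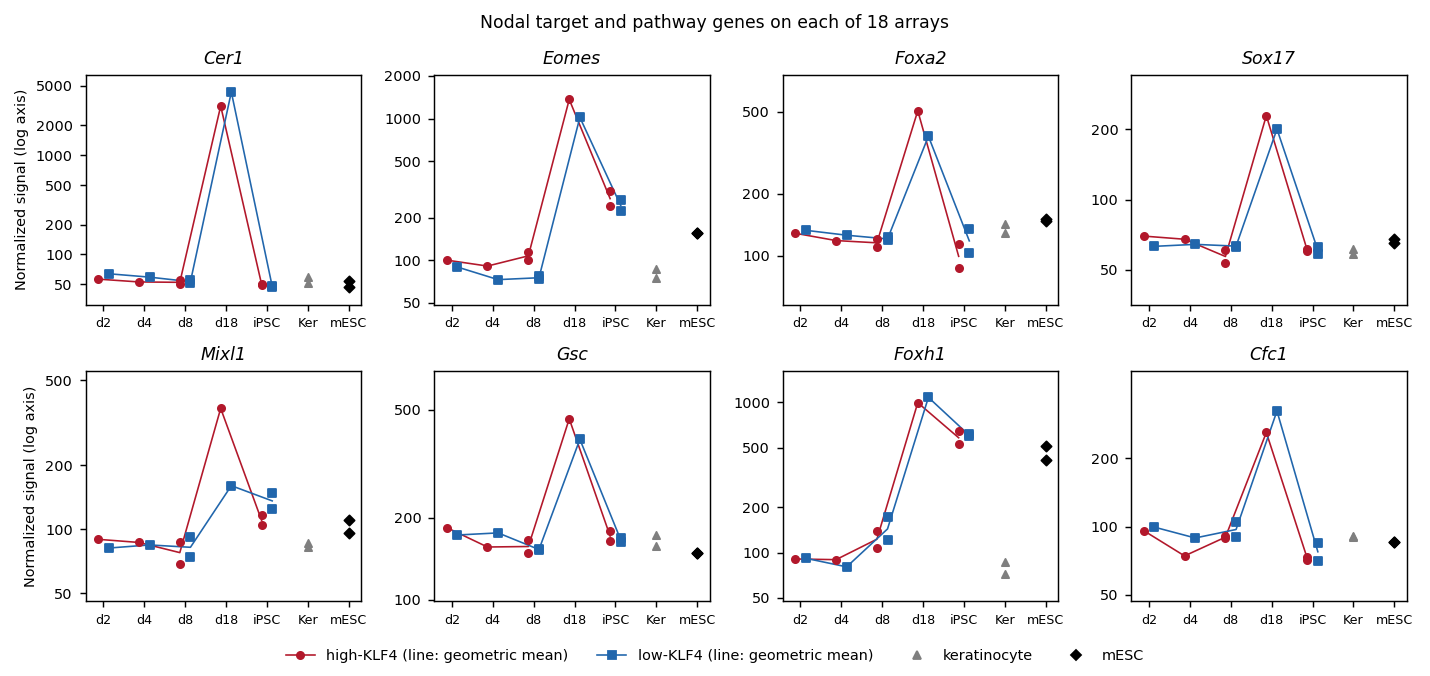
Normalized signal (log axis) of 8 Nodal target and pathway genes on each array, with high-KLF4 cells as circles, low-KLF4 cells as squares, keratinocytes (Ker) as triangles and mESCs as diamonds; lines join the geometric means of each cassette's groups. All 8 genes have their highest signals on the 2 day 18 arrays, with Cer1 at 3141 and 4349.

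Markers of other cell types moved with the Nodal targets. The mean log2 signal of 7 extraembryonic endoderm genes was 8.91 (high-KLF4) and 8.96 (low-KLF4) on day 18 and 6.89 to 7.85 on the other arrays, and 4 of the 7 were called higher than on day 8. Sox17 belongs to both lists. Pluripotency markers were at 10.63 (high-KLF4) and 11.14 (low-KLF4) on day 18 against 8.10 to 8.57 on day 8, with 6 of 7 called higher. The part of either in the Nodal values was not tested. Each cassette has 1 array on day 18. The day, the passage, the kept mCherry and anything particular to those 2 arrays cannot be told apart.

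Day 18 was also compared with the iPSC clones, a comparison added after the values had been seen. Against 17.1% of all probes called lower and 13.3% called higher, 3 members were lower on day 18 and 1 was higher. Tdgf1 differed by -1.12 ± 0.18 (limma adjusted p = 0.00261), Lefty1 by -1.01 ± 0.12 (limma adjusted p = 0.000633) and Nodal by -0.65 ± 0.14 (limma adjusted p = 0.00843). For Lefty2 no difference was detected (0.06, with an interval of -0.36 to 0.48). Id1 was at 1487 (high-KLF4) and 860.4 (low-KLF4) on day 18 against 249 to 297 in the 4 clones (2.07 ± 0.47, limma adjusted p = 0.0119). Id3 was at 969.9 and 855 on day 18 against 299 to 339 in the clones, with no overlap and no call (1.55 ± 0.60, limma adjusted p = 0.0883). Of the 9 members 6 had no overlap, and the share of all probes without overlap was not computed. In a fit of these 6 arrays alone, without the day 8 arrays in the spread, Id3 was called (adjusted p = 3.92e-05). So was Inhba, lower on day 18 (-0.92, adjusted p = 0.00237). That fit takes its spread from the clones alone, and it called 6038 of 23410 probes higher and 5865 lower. Without the high-KLF4 day 18 array, Tdgf1 (-0.73), Nodal (-0.46) and Id1 (1.67) were not called.

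Cer1 (6.24), Eomes (2.20), Foxa2 (2.02), Sox17 (1.82), Gsc (1.33) and Mixl1 (0.99) were called higher on day 18 than in the clones, while Lefty1 and Nodal were called lower, so the 9 measured Nodal targets did not move one way. Without the high-KLF4 day 18 array Mixl1 (0.39) and Id4 (0.39) were not called. Bmp2 was at 485 (high-KLF4) and 552 (low-KLF4) on day 18 against 60.2 to 73.6 in the clones (2.96 ± 0.29, limma adjusted p = 0.000236). Of 18 BMP and GDF ligand genes 5 were higher and 0 lower, against the 13.3% of all probes called higher, and 2 to 3 were called without each array in turn. Of 11 BMP-SMAD targets 2 were higher, Id1 and Id4 (0.77), a share near that of all probes, and none was called without the high-KLF4 day 18 array. All 7 pluripotency markers were lower.

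iPSC clones were compared with mESCs as the pluripotent reference. No member was called, against 4.31% of all probes in either direction, and the 9 differences ran between -0.88 and 0.70. Bmp4 was at 1055 to 1251 in the 4 clones against 2359 and 1869 in mESCs (-0.88 ± 0.40, limma adjusted p = 0.306). Id2 was at 1672 to 2514 in the clones against 1391 and 1261 in mESCs (0.70 ± 0.21, limma adjusted p = 0.124), and Lefty1 was at 2875 to 3228 against 2440 and 2157 (0.40 ± 0.12, limma adjusted p = 0.122). Of the 9 genes, 5 did not overlap between clones and mESCs: these 3, Id1 and Tdgf1. The share of all probes without overlap was not computed. Of 5 immune cell markers, 4 were called lower in the clones, and their part in these values was not tested. A fit of these 6 arrays alone called 4 members, Lefty1 and Id2 as higher and Bmp4 and Id1 as lower in the clones. That fit also called more of the 23410 probes, 2149 higher and 1559 lower. The intervals for Nodal (-0.18 to 0.44), Tdgf1 (-0.23 to 0.61) and Lefty2 (-0.37 to 0.47) included 0. Over all probes 474 were higher and 534 lower in the clones, and 374 higher and 826 lower with each array centred on its median. Of the listed pathway genes Inhbb was lower (-1.17) and Eomes (0.72) and Tcf12 (0.62) were higher in the clones, and the Inhbb call was lost without each of the 6 arrays in turn, that of Eomes without either mESC array and that of Tcf12 without the second mESC array.

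Keratinocytes, an epithelial reference, were lower than mESCs in 5 of the 9 members, against 20.4% of all probes called lower. The differences were -6.88 ± 0.21 for Tdgf1, -4.89 ± 0.14 for Lefty1, -4.05 ± 0.21 for Lefty2, -3.45 ± 0.16 for Nodal and -2.45 ± 0.47 for Bmp4 (limma adjusted p at most 0.00322). No member was called higher, against 17.7% of all probes. Inhba was at 4351 and 5398 in keratinocytes against 1524 and 1191 in mESCs and was not called (1.85 ± 1.12, limma adjusted p = 0.256). In a fit of these 4 arrays alone the SE of Inhba was 0.17 and it was called (adjusted p = 0.000933). Receptor genes were mostly higher in keratinocytes, 8 of 14 with 3 lower, among them Tgfbr2 (3.09), Acvr1b (1.54) and, in the other direction, Eng (-2.79). The ligand genes Bmp7 (2.96) and Bmp6 (2.39) were higher. Of 11 BMP-SMAD targets 1 was higher and 3 were lower, against 17.7% of all probes called higher and 20.4% called lower. Msx2 was higher, at a mean log2 signal of 9.04 in keratinocytes against 7.53 in mESCs. Hey1 (-1.35) was lower, as were Smad7 (-1.54) and Bambi (-1.35), whose products restrain signalling.

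The first and second arrays of day 8 differed in several members. Inhba on the second array minus the first was -2.56 in high-KLF4 and -3.71 in low-KLF4 cells. Id3 differed by -1.48 and -2.03, Bmp4 by -0.88 and -1.08, and Id1 by -0.51 and -1.96. Tdgf1 differed by -0.74 and -0.29, and Id2 by -0.60 and -0.40. Lefty1 differed by 0.23 and -0.39, Lefty2 by 0.42 and 0.10, and Nodal by -0.14 and 0.32. Over 23410 probes the SD of the difference between the 2 arrays was 0.46 in high-KLF4 and 0.49 in low-KLF4 cells, against 0.15 to 0.23 in the other pairs. The lower fibroblast markers of the second arrays are given above, and their part in the values of the members was not tested here.

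**Figure D5:**
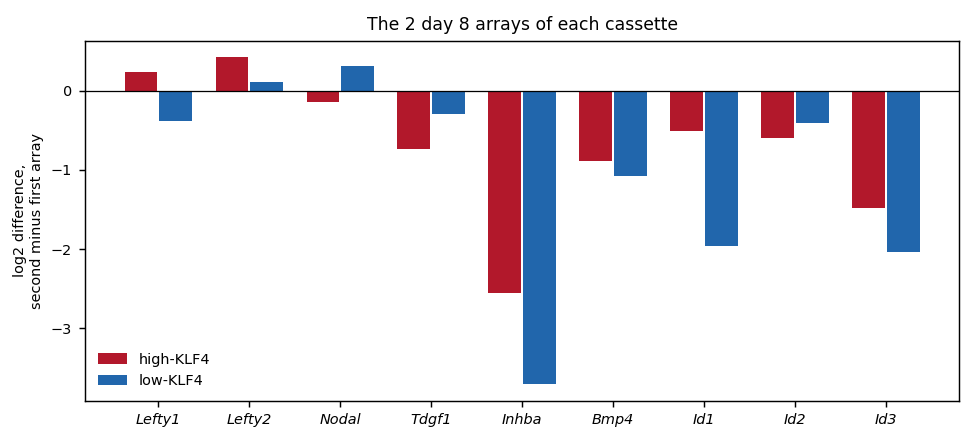
Log2 difference of the second minus the first day 8 array for each of the 9 genes, with high-KLF4 cells left of low-KLF4 cells. Inhba differs most in both, at -2.56 and -3.71, and Lefty1, Lefty2 and Nodal by at most 0.42 in size.

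Results that rest on these arrays were recomputed without them, a choice made after the data were seen. Without both arrays numbered 1, each cassette rests on 1 day 8 array, so only differences between the cassettes are given. They were 1.99 for Id1, 0.99 for Lefty2, -0.80 for Nodal and -0.65 for Tdgf1. Without both arrays numbered 2 they were 0.54, 0.67, -0.34 and -0.20 in the same order. Inhba turned its direction on day 18 against day 8, 1.47 without the arrays numbered 1 and -1.67 without those numbered 2, and both were called. The calls of Lefty1, Lefty2, Nodal and Tdgf1 on day 18 against day 8 held both ways.

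The genes most like each member over the 12 group means were taken from 8373 genes whose group means spanned at least 1 on the log2 scale, as a description with no test. Lefty1 was most like Sox2, a pluripotency factor gene that the cassettes also carry (Pearson's r = 0.988), Ppp1r1a (0.988) and Gm6083 (0.986). Lefty2 was most like Slc39a4 (0.992), Dppa5a (0.991) and the DNA methyltransferase gene Dnmt3b (0.991). Nodal was most like Ppp1r1a (0.995), Epp13 (0.989) and Gdf3 (0.986), and Tdgf1 was most like Amt (0.989), Utf1 (0.988) and Nodal (0.984). The other members had less close neighbours. Inhba was most like Tnfrsf23 (0.934), Lce1h (0.918) and Smim15 (0.895), and Bmp4 was most like Phf11d (0.920), Twf2 (0.917) and Vegfc (0.910). Id1 was most like Tnfrsf1b (0.956), the epithelial keratin gene Krt19 (0.945) and Slc6a12 (0.939). Id2 was most like Rcan1 (0.916), Garre1 (0.900) and Tmem144 (0.900), and Id3 was most like Calcrl (0.931), Flt1 (0.896) and Dbn1 (0.875). Among the ID genes the correlation was 0.79 for Id1 with Id2, 0.69 for Id1 with Id3 and 0.42 for Id2 with Id3.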

How the data were processed

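Members and gene lists were chosen with earlier results of these data known. RNA of 18 samples was hybridised to 1-colour Affymetrix Mouse Gene 1.0 ST arrays. The deposited values are normalized intensities on a linear scale (20.2 to 19539). The authors normalized them by RMA within GeneSpring. Intensities were log2 transformed with no further normalization, and probes were named from the platform annotation: 21789 of 28853 carried 1 symbol, 1621 several and 5443 none. Groups came from the sample labels. limma 3.58.1 (R 4.3.3) was fitted to 12 groups over all 18 arrays (6 residual and 2.25 prior degrees of freedom). The 10 mCherry+ arrays were fitted separately with day or cassette as a block (5 residual and 2.08 prior degrees of freedom). Tests were two-sided, with Benjamini-Hochberg adjustment at 0.05 over 23410 probes with a symbol, and were tested on simulated data. In the order of groups, neighbours were compared with a 95% margin from the pooled spread of the probe. This was done after ranking and with no adjustment for the number of steps. Named genes were the 9 members, the 2 largest called changes each way in each pathway list, and the 3 genes most correlated with each member over 12 group means. Promoter windows came from RefSeq (GRCm38.p6). Tables and plots used Python 3.11.15, pandas 2.3.3 and matplotlib 3.10.9. Precision is limited by the number of arrays.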

Additional observations from a re-analysis of the deposited data

How the results depend on the processing

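The alternatives were a second quantile normalization, arrays centred on their median, a filter removing the dimmest 30% of probes, limma-trend, the methods' t-test, replicate numbers as a block, a separate fit of only the arrays compared, and each array left out in turn. Of 264 alternative values of called members, 255 kept direction and call, 9 lost the call and 0 turned direction. Of 717 values of members not called, 631 kept their side, 41 became called and 45 turned direction. Of 1108 values of other named genes, 981 kept their calls and 127 lost them. The mean of all single-symbol probes gave no value of its own because each member has 1 such probe. The causes of these changes were not tested, except that leaving arrays out leaves fewer samples.

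Without each array in turn, the number of members called was 0 to 2 for the day 8 cassette difference, 0 to 1 for day 8 against day 2, 0 to 1 for the change in cassette difference between day 8 and clones, 1 to 4 for day 18 against iPSC clones, 4 to 6 for day 8 high-KLF4 cells against their clones, 4 to 5 for day 8 low-KLF4 cells against theirs and 4 to 5 for day 18 against day 8. A fit of the compared arrays alone called 4 members for iPSC clones against mESCs, with 2149 of 23410 probes called higher and 1559 lower. Leaving out both day 8 arrays of 1 number was an alternative chosen after the data were seen. The cassette and clone comparisons of day 8 then rest on 1 array per cassette, so their calls are not counted here. Without those numbered 1, 5 members were called for day 8 against day 2, with 1499 of 23410 probes higher and 1640 lower. For day 18 against day 8 it was 7 members, with 2101 probes higher and 2529 lower. Without those numbered 2, 1 member, Id2, was called for the cassette difference over all days, with 109 probes higher and 2 lower.

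Directions that turned without both arrays numbered 1 were those of Id2 (-0.11) on day 8 against day 2, Id3 (-0.61) in day 8 low-KLF4 cells against clones and Inhba (1.47) on day 18 against day 8. Without both numbered 2 they were those of Id1 (-0.42) on day 18 against day 8, Id3 (0.55) and Inhba (0.31) on day 8 against day 2, Inhba against the clones with high-KLF4 (0.80) and low-KLF4 (0.70), and Id3 (-0.017), Inhba (-0.26) and Lefty1 (-0.24) between the cassettes on day 8. A second quantile normalization turned Inhba on day 18 against day 8 (0.055), and centring turned Lefty2 in iPSC clones against mESCs (-0.0078). Leaving out single arrays turned the direction of some uncalled members, with these ranges of log2 differences. For the day 8 cassette difference they were -0.088 to 0.99 for Bmp4, -0.76 to 1.28 for Id3, -1.54 to 2.17 for Inhba and -0.13 to 0.26 for Lefty1. For the cassette difference over all days they were -0.045 to 0.58 for Id3, -0.16 to 0.98 for Inhba and -0.059 to 0.26 for Lefty1. For day 8 high-KLF4 cells against their clones they were -1.76 to 0.80 for Inhba. For day 8 low-KLF4 cells against their clones they were -0.61 to 1.42 for Id3 and -3.01 to 0.70 for Inhba. For iPSC clones against mESCs they were -0.24 to 0.37 for Id3, -0.085 to 0.18 for Lefty2 and -0.049 to 0.31 for Nodal. For keratinocytes against mESCs they were -0.65 to 0.45 for Id3. For day 8 against day 2 they were -0.72 to 0.066 for Id3. For day 18 against day 8 they were -0.21 to 0.55 for Id1 and -0.80 to 0.63 for Inhba. For day 18 against iPSC clones they were -0.32 to 0.57 for Id2 and -0.14 to 0.26 for Lefty2.

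The day 8 arrays of the 2 cassettes carry the same replicate numbers, and neither the labels nor the methods say that a number marks a shared experiment. The deviations of same-numbered day 8 arrays from their group means correlated at 0.735 over probes, and those of keratinocytes and mESCs at 0.0139. With the number as a replicate block, 4 members were called between the cassettes on day 8, Lefty2 (limma adjusted p = 0.0230), Nodal (0.0457), Tdgf1 (0.0428) and Id1 (0.0396), and 2 over all days, Id1 (0.0475) and Id2 (0.0439). The block raised the probes called to 1752 higher and 1195 lower on day 8, and to 415 higher and 90 lower over all days, and left 5 members called between keratinocytes and mESCs.

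Over all alternatives the number of probes called was 0 to 3358 (935 as reported) for the day 8 cassette difference, 2 to 505 (38 as reported) for the cassette difference over all days, 3668 to 8812 (6611 as reported) for day 8 high-KLF4 cells against their clones, 1575 to 7960 (4508 as reported) for day 8 low-KLF4 cells against their clones, 308 to 3708 (1008 as reported) for iPSC clones against mESCs. It was 6696 to 9887 (8917) for keratinocytes against mESCs, 0 to 3139 (236) for day 8 against day 2, 568 to 4792 (2770) for day 18 against day 8, 43 to 2306 (193) for the change in cassette difference, 4070 to 11903 (7100) for day 18 against iPSC clones. The methods' t-test called 0 probes on day 8 after Benjamini-Hochberg adjustment and 1266 at an unadjusted p under 0.05, with no member among them. Likeness by Spearman's rho on linear means shared 6 of 27 neighbours with the likeness reported. The number of arrays limits the precision, and with 1 array per cassette on days 2, 4 and 18 those days have no spread of their own.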
